A study of Mus musculus with 5 samples.

Results

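Germ layer and trophectoderm lineage genes are 57 genes that mark early embryonic lineages and some of their differentiated cells. Of these, 55 were measured among 19938 genes on the array. They were chosen by name, and each gene was read from its brightest probe set, by the mean over the 5 arrays. They comprise 14 measured genes of mesendoderm, 11 of primitive and definitive endoderm, 15 of the neural lineage and 15 of trophectoderm. The mesendoderm gene T and the trophoblast gene Gcm1 had no probe set with that single symbol in the array annotation used and were not analysed here.

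RNA came from mouse embryonic stem (ES) cells carrying Satb1 under a doxycycline-inducible tetO promoter, grown in serum with the cytokine LIF. The induced group (3 arrays) received doxycycline (DOX) for 24 h, and the uninduced group had 2 arrays of the same cells without DOX. In both groups the cells were harvested 48 h after passage. Both groups carried the transgene, no array of DOX-treated cells without it was used, and separate cultures or clones within a group are not stated in the labels. P-values therefore reflect array-to-array spread only, possibly technical. One label places the cells on irradiated feeder fibroblasts, which were reduced by settling before RNA was made. SATB1 protein lies in the nucleus and binds DNA rich in A and T.

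In the early embryo the trophectoderm separates first and forms the placenta, and primitive endoderm then forms the yolk sac lining. The remaining epiblast gives rise to mesendoderm at the primitive streak and to neural tissue. Mouse ES cells correspond to the epiblast before this step, and lineage genes are commonly used to see whether such cells have begun to differentiate, either as a whole or in a minority of cells. In bulk RNA, fewer cells of a type and less RNA per cell cannot be told apart.

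The arrays fit their labels. Satb1 had a log2 level of 8.61, 8.79 and 8.68 on the induced arrays, against 4.95 and 5.34 on the uninduced arrays, a difference of 3.55. Its adjusted p in limma was 0.229, so Satb1 itself did not pass at 0.05. Genes that define ES cells, such as Pou5f1, Sox2 and Nanog, were all measured above the median level of all genes (12 of 12). Mean levels of these 12 genes were 8.95, 8.95 and 8.94 on the induced arrays and 8.94 and 8.99 on the uninduced arrays. Of the 12, 3 had a higher mean, 8 a lower mean and 1 was equal. Tdgf1 differed most, with 11.07, 11.09 and 11.01 on the induced arrays, against 11.23 and 11.29 on the uninduced arrays. Its groups were apart, an order found in 3.08% of all genes, and its difference was -0.21 (limma unadjusted p = 0.0065, adjusted p = 0.770). Pearson's r between arrays lay between 0.9972 and 0.9979 across genes, which are not independent replicates.

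None of the 55 lineage genes passed the test between induced and uninduced cells. In limma, adjusted over all 19938 genes, their adjusted p-values ran from 0.770 to 1, while 0.015% of all genes passed, 0.01% with a higher and 0.00502% with a lower level in induced cells. Satb1, at a difference of 3.55, did not pass this test either. The lack of calls therefore does not show that the members were unchanged. Before adjustment, 0 members were higher at a p under 0.05, against 0.481% of all genes. There were 2 lower members, Krt19 and Tfap2c, against 1.07% of all genes. With a prior spread taken from genes that had 5 distinct values, 0 members passed after adjustment, against 0.00502% of all genes, and Krt19 alone had an unadjusted p under 0.05. Of all genes, 0.301% were higher and 0.772% lower by this measure.

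Differences among the members were small and ran both ways. Induced minus uninduced log2 differences lay between -0.34, for Krt19, and 0.20, for Nes. In these 55 genes, 23 means were higher, 22 were lower and 10 were equal, and the median difference was 0, as it was over all genes. An absolute difference over 0.1 was seen in 8 members, against 14.2% of all genes. The groups did not overlap in 3 members. Gata6 was the 1 member with every induced array above both uninduced arrays, an order found in 1.65% of all genes. Krt19 and Tfap2c had the opposite order, with all induced values under both uninduced values, which was found in 3.08% of all genes. In 28 members the range among the induced arrays alone was larger than the difference between the groups (50.9%, against 57.3% of all genes).

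**Figure D1:**
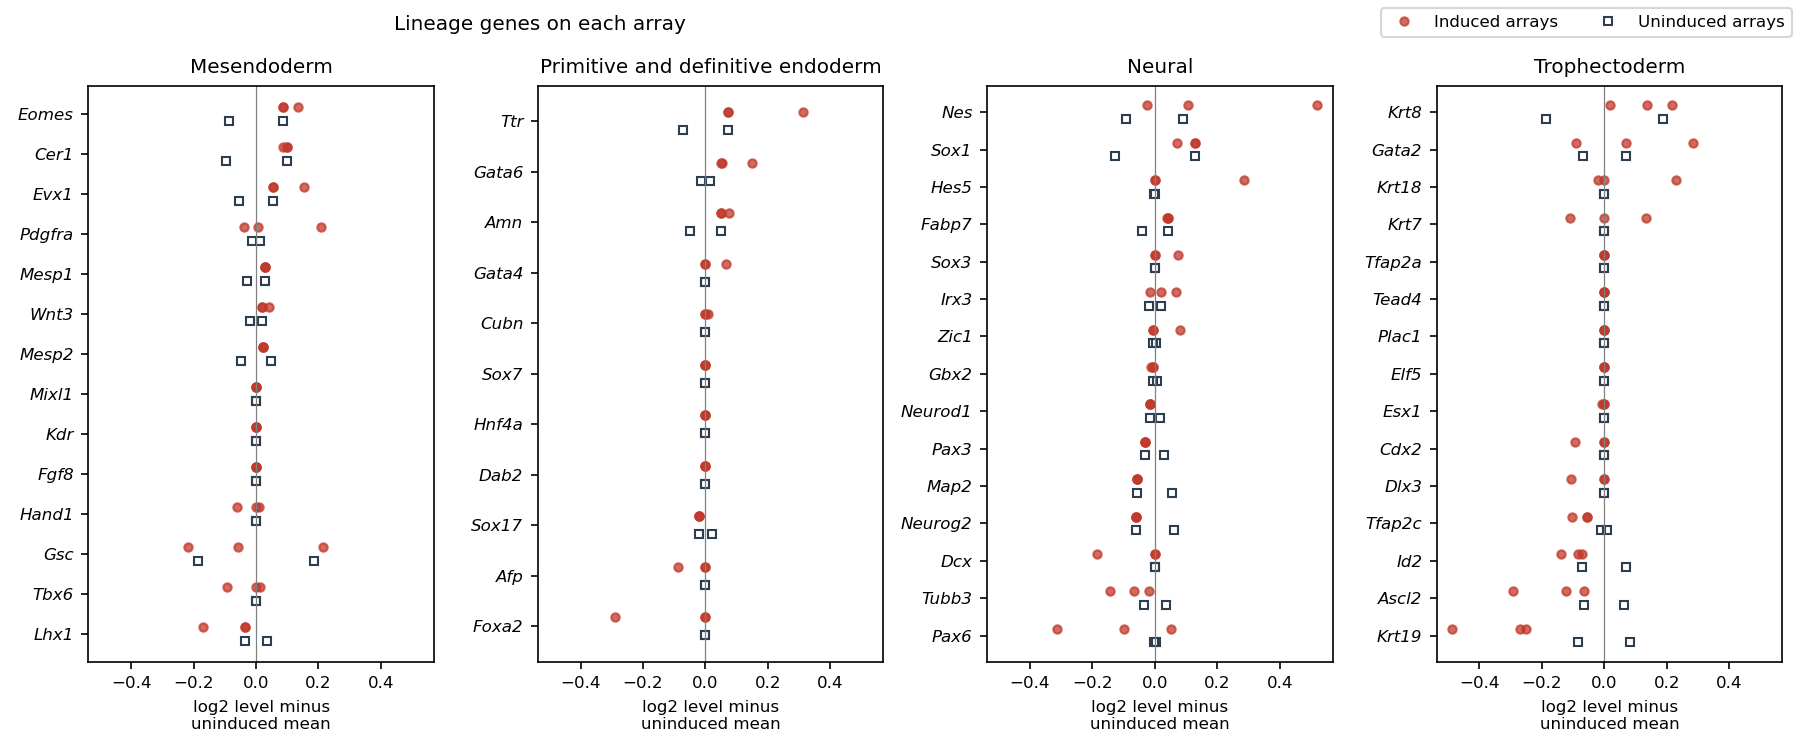
Log2 level of each of the 55 measured lineage genes on each array, minus the mean of the uninduced arrays, by lineage class; red circles are the 3 induced arrays and open squares the 2 uninduced arrays. Krt19 lies lowest at the bottom right, and most genes have induced and uninduced points that overlap or coincide at 0.

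**Figure D2:**
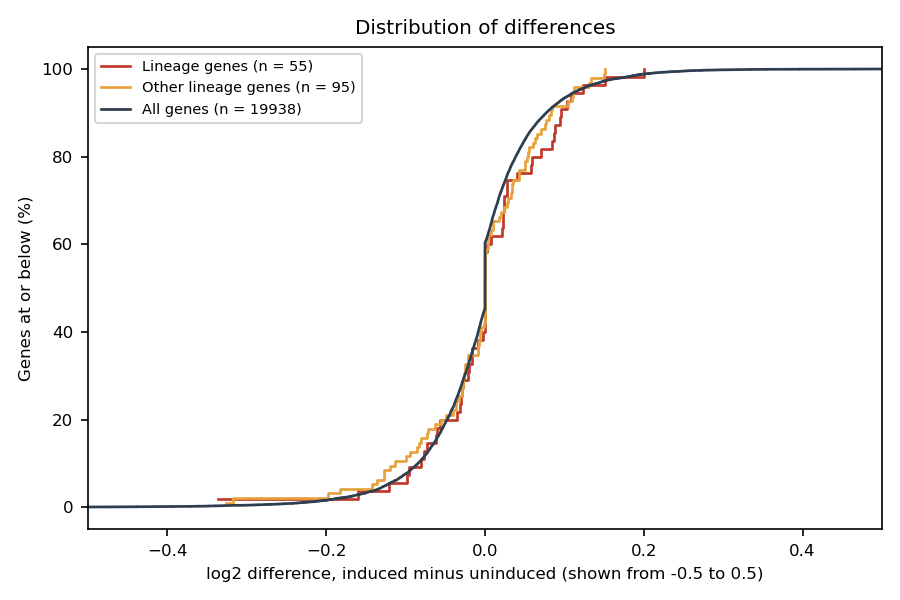
Cumulative share of genes (y axis, percent) by log2 difference between induced and uninduced cells (x axis, shown from -0.5 to 0.5), for the 55 lineage genes, 95 other lineage genes and all 19938 genes. The 3 curves run close together, with a vertical step at 0 where all arrays had 1 value.

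Many of the levels are exact repeats, which limits what they can show. Of the 55 members, 10 had the same value on all 5 arrays, or 18.2%, against 15.1% of all genes. These were Mixl1, Fgf8, Kdr, Sox7, Hnf4a, Dab2, Elf5, Tfap2a, Plac1 and Tead4. Such values were often held by other genes too. The value of Kdr on induced array 1 was also that of 141 other genes, and that of Tfap2a was also that of 160 other genes. In 9 members the value on every array was shared with at least 1 other gene, or 16.4%, against 13.3% of all genes. Members that varied between arrays also shared values. On induced array 3, 64 other genes had the value of Cdx2, 79 that of Dlx3 and 156 that of Neurog2. Krt19, Tfap2c, Ascl2, Krt8 and Krt7 were among the 16 members that shared no value with another gene on any array. Equality was exact, to the last deposited digit.

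The trophectoderm class held the members with the smallest p-values. It includes Cdx2, the factor that sets the trophectoderm apart from the inner cell mass, and Tead4, which acts upstream of it. It also has the trophoblast factors Elf5, Gata2, Tfap2c, Ascl2 and Gcm1, and the keratins Krt7, Krt8, Krt18 and Krt19 of simple epithelia. Of 15 measured members, 4 had a higher mean, 7 a lower mean and 4 were equal, with a median of 0, and 9 lay above the median level of all genes.

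Krt19, a keratin of simple epithelia and trophectoderm, had log2 levels of 5.92, 5.90 and 5.68 on the induced arrays, against 6.25 and 6.08 on the uninduced arrays. All induced values were below both uninduced values. Its mean was 5.83 ± 0.13 (SD, n = 3) in induced and 6.17 ± 0.12 (SD, n = 2) in uninduced cells, which is -0.34 ± 0.11 (standard error) on the log2 scale, or 1.26-fold lower. In limma its unadjusted p was 0.043 and its adjusted p 0.770. With that prior spread its 95% interval ran from -0.58 to -0.09 and its adjusted p was 1. With the mean of feeder fibroblast genes as a covariate the difference was -0.16. That mean was higher on every induced array, so the covariate cannot be cleanly separated from induction.

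Tfap2c encodes the factor AP-2 gamma, used in trophoblast and in germ cells. It had 6.77, 6.72 and 6.77 on the induced arrays, against 6.81 and 6.83 on the uninduced arrays. The groups were apart, but by little: the difference was -0.07 ± 0.02 (standard error). Limma gave it an unadjusted p of 0.031 and an adjusted p of 0.770. The related gene Tfap2a had 3.60 on all arrays.

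Ascl2, a bHLH factor of the ectoplacental cone and spongiotrophoblast, had 4.84, 4.67 and 4.90 on the induced arrays, against 4.90 and 5.02 on the uninduced arrays. Induced array 3 and uninduced array 1 had the same value, so the groups touched, and the difference was -0.16. Id2, an inhibitor of bHLH factors that is present in early trophectoderm, had 7.62, 7.60 and 7.55 on the induced arrays, against 7.62 and 7.76 on the uninduced arrays. Here too the groups touched, with a difference of -0.10. Dlx3, a homeobox gene of the placental labyrinth, had 5.24, 5.14 and 5.24 in induced cells and 5.24 on both uninduced arrays. Induced array 2 alone gave its difference of -0.04. Cdx2 had 4.44, 4.54 and 4.54 on the induced arrays, against 4.54 on both uninduced arrays.

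Differences in the other keratins were positive and did not pass. Krt8 had 7.41, 7.61 and 7.53 on the induced arrays, against 7.58 and 7.21 on the uninduced arrays, a difference of 0.12. Its uninduced values lay farther apart than the group means, and without uninduced array 2 the difference was -0.06. Krt18, whose protein pairs with that of Krt8 in keratin filaments, had 6.85, 7.10 and 6.87 on the induced arrays, against 6.87 on both uninduced arrays. Induced array 2 was the highest for both genes, and for Krt7, which had 5.61, 5.75 and 5.50 in induced and 5.61 on both uninduced arrays. Differences in Krt18 and Krt7 were 0.07 and 0.0078. Gata2, a factor of trophoblast giant cells and of blood, had 5.42, 5.26 and 5.63 on the induced arrays, against 5.28 and 5.42 on the uninduced arrays, a difference of 0.09 with overlap.

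The mean of the trophectoderm class was 5.51, 5.52 and 5.52 on the induced arrays, against 5.55 and 5.55 on the uninduced arrays, a difference of -0.03. That order rested on Krt19. Without it, a choice made after seeing the data, the means of the other 14 were 5.48, 5.50 and 5.51 in induced and 5.50 and 5.51 in uninduced cells, and the difference was -0.0080.

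**Figure D3:**
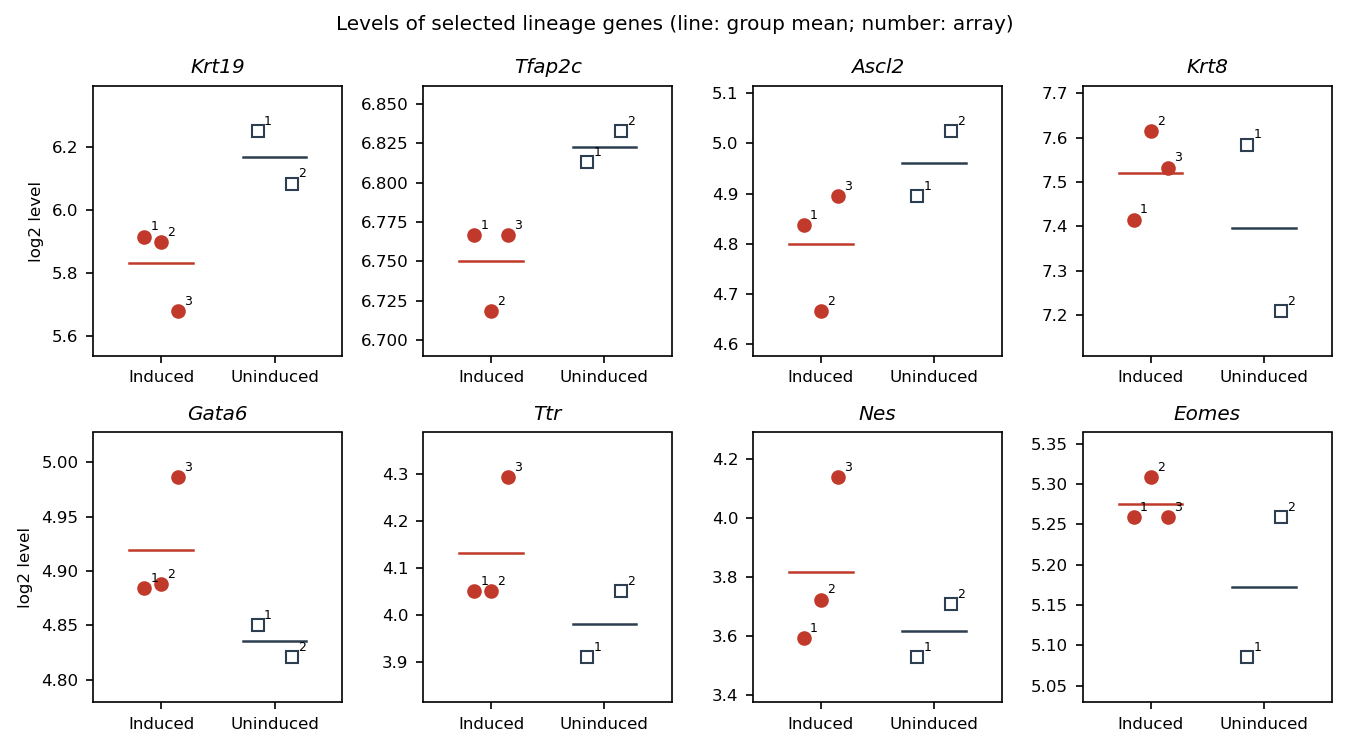
Log2 level of 8 lineage genes on each array (points, numbered by array) with the group mean as a line; induced arrays are left and uninduced arrays right, and each panel has its own y axis, which does not start at 0. Krt19 and Tfap2c have all induced points below the uninduced points, Gata6 has them above, and Nes and Ttr have a single high induced array, array 3.

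Promoters of the keratin pair Krt8 and Krt18, which lie close together on the same chromosome, and of Ascl2 are given to show the DNA before the starts of these genes. For each other class the promoter is that of the member with the largest difference among those with 1 listed start. The sequences are from RefSeq (GRCm38.p6), cover the 250 bases before the start and run 5′ to 3′ in the direction of the gene. Capitals mark runs of 6 or more A or T letters, searched because SATB1 binds AT-rich DNA. Krt8 lies at chr15:102004343-102004592, minus strand. Krt18 lies at chr15:102027966-102028215, plus strand. Ascl2 lies at chr7:142969265-142969514, minus strand.
Krt8: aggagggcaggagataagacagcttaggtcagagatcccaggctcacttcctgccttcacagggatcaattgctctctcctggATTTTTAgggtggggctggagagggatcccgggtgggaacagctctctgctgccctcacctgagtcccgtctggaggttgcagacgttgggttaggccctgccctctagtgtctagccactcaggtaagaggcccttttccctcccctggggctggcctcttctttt
Krt18: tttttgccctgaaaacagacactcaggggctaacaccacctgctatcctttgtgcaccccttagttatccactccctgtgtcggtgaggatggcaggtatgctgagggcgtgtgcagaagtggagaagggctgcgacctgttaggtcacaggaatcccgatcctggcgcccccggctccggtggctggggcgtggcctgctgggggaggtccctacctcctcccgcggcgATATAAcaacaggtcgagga
Ascl2: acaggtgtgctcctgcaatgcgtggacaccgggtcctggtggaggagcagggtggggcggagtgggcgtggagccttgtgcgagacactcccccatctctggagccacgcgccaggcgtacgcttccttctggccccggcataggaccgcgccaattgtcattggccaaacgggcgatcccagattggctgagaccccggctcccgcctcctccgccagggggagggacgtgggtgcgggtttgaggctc
Krt8 has 1 such run, Krt18 has 1 and Ascl2 has 0. RefSeq promoters were matched for 41 of the 55 measured members, with 51 starts. A run was present in 39 of these 51 windows, or 76.5%, against 66.9% of the 32851 windows of all genes. The median share of A and T was 42.0% in the members' windows and 47.6% in all windows. A run is a description of letters and shows no binding.

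Mesendoderm genes mark the primitive streak and the mesoderm and endoderm that leave it. Of 14 measured members, 7 had a higher mean, 4 a lower mean and 3 were equal, with a median of 0.011, and 5 lay above the median level of all genes. No member had an unadjusted p under 0.05 in limma. Among the ligands, Wnt3, the WNT signal that starts the streak, had 4.70, 4.70 and 4.72 on the induced arrays, against 4.66 and 4.70 on the uninduced arrays. Fgf8, a growth factor of streak cells, had 5.24 on all 5 arrays. Cer1, a secreted inhibitor of Nodal, BMP and WNT made by anterior endoderm, had 4.29, 4.28 and 4.29 in induced and 4.29 and 4.09 in uninduced cells. Its difference of 0.09 came from uninduced array 2, and without that array it was -0.0036.

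Transcription factors of the streak gave the largest difference of the class. Eomes, a T-box factor of the streak that is also needed in trophoblast, had 5.26, 5.31 and 5.26 on the induced arrays, against 5.09 and 5.26 on the uninduced arrays. The single low value was uninduced array 1, and the difference was 0.10 with a standard error of 0.06. Evx1, a homeobox gene of the posterior streak, had 4.44, 4.54 and 4.44 in induced and 4.44 and 4.33 in uninduced cells, a difference of 0.09. Lhx1, a LIM homeobox gene of the streak and anterior endoderm, had 4.39, 4.25 and 4.39 on the induced arrays, against 4.46 and 4.39 on the uninduced arrays, a difference of -0.08. In all 3 genes the groups shared a value.

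Gsc, the organizer homeobox gene goosecoid, varied most within the groups of this class. It had 4.83, 4.67 and 5.11 on the induced arrays, against 5.08 and 4.71 on the uninduced arrays, and the difference was -0.02. Mesp1, a factor of cardiac mesoderm, had 4.22 on every array except uninduced array 2, at 4.17. Its neighbour Mesp2, a factor of somite borders, had 5.44 on all induced arrays, against 5.37 and 5.47 on the uninduced arrays. Mixl1 had 4.59 on all arrays. Tbx6, needed for paraxial mesoderm, and Hand1, of heart and trophoblast giant cells, had differences of -0.03 and -0.02. The receptor gene Kdr, of blood and vessel precursors, had 4.09 on all arrays. Pdgfra, a receptor gene of mesoderm, primitive endoderm and fibroblasts, had 4.59, 4.64 and 4.84 on the induced arrays, against 4.62 and 4.64 on the uninduced arrays. Induced array 3 was the high one.

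The Eomes promoter lies at chr9:118477939-118478188, plus strand, with capitals as above. It is shown because Eomes had the largest difference of the mesendoderm members. The window has 4 runs of A and T letters, the longest with 12.
Eomes: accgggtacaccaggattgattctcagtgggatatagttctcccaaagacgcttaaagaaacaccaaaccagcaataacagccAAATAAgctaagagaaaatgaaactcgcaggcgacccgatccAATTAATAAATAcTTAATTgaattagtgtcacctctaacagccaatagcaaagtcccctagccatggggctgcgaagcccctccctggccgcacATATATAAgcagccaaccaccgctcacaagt

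Endoderm genes comprise GATA and SOX factors that set up primitive endoderm and products of its visceral descendant. Of 11 measured members, 5 had a higher mean, 3 a lower mean and 3 were equal, with a median of 0, and 3 lay above the median level. Gata6, the factor that directs inner cells to primitive endoderm, had 4.88, 4.89 and 4.99 on the induced arrays, against 4.85 and 4.82 on the uninduced arrays. The groups were apart, with the nearest values at 4.88 and 4.85. Its difference was 0.08 with a standard error of 0.04, and limma gave an unadjusted p of 0.122 and an adjusted p of 0.770. Gata4, which acts with Gata6, had 5.83, 5.77 and 5.77 in induced cells and 5.77 on both uninduced arrays.

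Of the other factors, 2 had 1 value on all arrays. Sox17 had 4.24 on all arrays except uninduced array 1, at 4.28, and Sox7 had 4.71 on all arrays. Foxa2, a forkhead factor of endoderm, had 5.07, 4.78 and 5.07 on the induced arrays, against 5.07 on both uninduced arrays. Induced array 2 alone gave its difference of -0.10. Hnf4a, a nuclear receptor gene of visceral endoderm, had 5.19 on all arrays.

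Products of differentiated endoderm gave no call. Ttr, the thyroxine carrier made by visceral endoderm and liver, had 4.05, 4.05 and 4.29 on the induced arrays, against 3.91 and 4.05 on the uninduced arrays. Induced array 3 was high and uninduced array 1 low, and the difference was 0.15 with a standard error of 0.11. Afp, alpha-fetoprotein, had 3.37, 3.46 and 3.46 in induced and 3.46 on both uninduced arrays. Amn and Cubn encode the 2 parts of the cubam uptake receptor. Amn had 5.39, 5.39 and 5.41 on the induced arrays, against 5.39 and 5.29 on the uninduced arrays, and Cubn differed by 0.0029. Dab2, an adaptor of endocytosis in primitive endoderm, had 4.80 on all arrays, and its other probe set had 2.87, 3.18 and 2.87 in induced and 2.80 and 2.87 in uninduced cells.

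The Amn promoter, given as the endoderm example, lies at chr12:111270846-111271095, plus strand. It has 0 runs of 6 or more A or T letters.
Amn: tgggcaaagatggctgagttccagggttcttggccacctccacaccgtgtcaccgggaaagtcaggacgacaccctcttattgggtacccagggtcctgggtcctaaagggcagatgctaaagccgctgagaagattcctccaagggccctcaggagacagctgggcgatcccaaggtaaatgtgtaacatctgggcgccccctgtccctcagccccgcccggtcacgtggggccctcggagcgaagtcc

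Neural genes run from factors of the neural plate to structural genes of neurons. Of 15 members, 7 had a higher and 8 a lower mean, with a median of -0.0084, and 8 lay above the median level. Early factors gave no call. Sox1, the earliest specific factor of the neural plate, had 6.24, 6.19 and 6.24 on the induced arrays, against 5.99 and 6.24 on the uninduced arrays, a difference of 0.11. Uninduced array 1 was the low one, and without it the difference was -0.02. Sox3 had 6.04, 6.04 and 6.11 in induced and 6.04 on both uninduced arrays. Pax6, a factor of forebrain and eye, had 4.42, 4.79 and 4.64 on the induced arrays, against 4.73 and 4.74 on the uninduced arrays, a difference of -0.12. Induced array 2 lay above both uninduced arrays and the other two below.

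Nes, which encodes the filament protein nestin of neural precursors, gave the largest positive difference of all members. It had 3.59, 3.72 and 4.14 on the induced arrays, against 3.53 and 3.71 on the uninduced arrays. The difference was 0.20 with a standard error of 0.21, and only induced array 3 stood above the uninduced range by more than 0.1. Without that array the difference was 0.04, and with the feeder mean as a covariate it was -0.12. The covariate has the limit given for Krt19. Hes5, a target of Notch signalling in neural precursors, had 5.73, 5.73 and 6.02 on the induced arrays, against 5.73 on both uninduced arrays. Again array 3 alone was high. Gbx2, a homeobox gene of the hindbrain that ES cells also express, had 6.76 on each induced array, against 6.76 and 6.78 on the uninduced arrays.

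Genes of neurons gave no call. Tubb3, the neuronal beta-tubulin gene, had 5.50, 5.63 and 5.58 on the induced arrays, against 5.61 and 5.68 on the uninduced arrays, a difference of -0.08. Map2, a microtubule protein gene of dendrites, had 5.03 on every array except uninduced array 2, at 5.15. Dcx, the gene of doublecortin in migrating neurons, had 3.44, 3.25 and 3.44 in induced and 3.44 on both uninduced arrays. The proneural factors Neurog2 and Neurod1 differed by -0.06 and -0.02. Pax3 and Zic1, of the dorsal neural tube, differed by -0.03 and 0.02, the glial lipid carrier gene Fabp7 by 0.04 and Irx3 by 0.02.

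The Nes promoter, of the neural member with the largest difference, lies at chr3:87970843-87971092, plus strand. It has 0 runs of 6 or more A or T letters.
Nes: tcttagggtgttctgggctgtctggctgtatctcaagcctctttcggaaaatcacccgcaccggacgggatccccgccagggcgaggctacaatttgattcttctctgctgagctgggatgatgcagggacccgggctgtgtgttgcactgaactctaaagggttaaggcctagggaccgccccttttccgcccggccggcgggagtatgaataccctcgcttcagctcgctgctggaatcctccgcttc

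The induced arrays differed in how many members lay apart from the others. On induced array 3, 6 of 55 members (10.9%) lay more than 0.1 above the median of the 3 induced arrays, against 5.56% of all genes. On induced array 1 it was 0 members against 4.61% of all genes, and on induced array 2 it was 3 members (5.45%) against 6.56%. More than 0.1 below that median lay 3 members on induced array 1 (5.45%, against 5.26% of all genes), 7 on array 2 (12.7%, against 6.25%) and 2 on array 3 (3.64%, against 5.77%). Class means on induced arrays 1, 2 and 3 were 4.78, 4.77 and 4.82 for mesendoderm, against 4.79 and 4.75 on the uninduced arrays. They were 4.68, 4.65 and 4.71 for endoderm, against 4.66 and 4.66, and 4.86, 4.88 and 4.94 for neural genes, against 4.87 and 4.91. In each of these classes array 3 was the highest and the induced arrays overlapped or straddled the uninduced ones. Over all genes, induced array 3 also had the highest median, at 5.071, against 5.051 to 5.068 on the other arrays. Its mean over all genes, 5.236, was below those of the uninduced arrays, 5.241 and 5.242.

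Feeder fibroblast genes were measured beside these values, since Nes and Pdgfra are also expressed by fibroblasts. The mean of 24 measured fibroblast genes was 5.457, 5.473 and 5.467 on the induced arrays, against 5.435 and 5.448 on the uninduced arrays, so the induced arrays were all slightly above the uninduced ones. As a covariate, this mean therefore cannot be cleanly separated from induction. Of the 24 genes, 12 had a higher mean, 8 a lower mean and 4 were equal, and the groups overlapped in each gene. Their median difference was 0.0023. An absolute difference over 0.1 was seen in 3 of them, Tagln at 0.19, Acta2 at 0.18 and Mmp2 at 0.11. Col1a1 had 6.07 on all induced arrays, against 6.07 and 6.09 on the uninduced arrays, and Lum had a mean of 2.43 over all arrays. A level above 0 does not show feeder RNA, since the lowest deposited value of any probe set was 0.789. The part of feeder RNA in the member values was not tested.

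**Figure D4:**
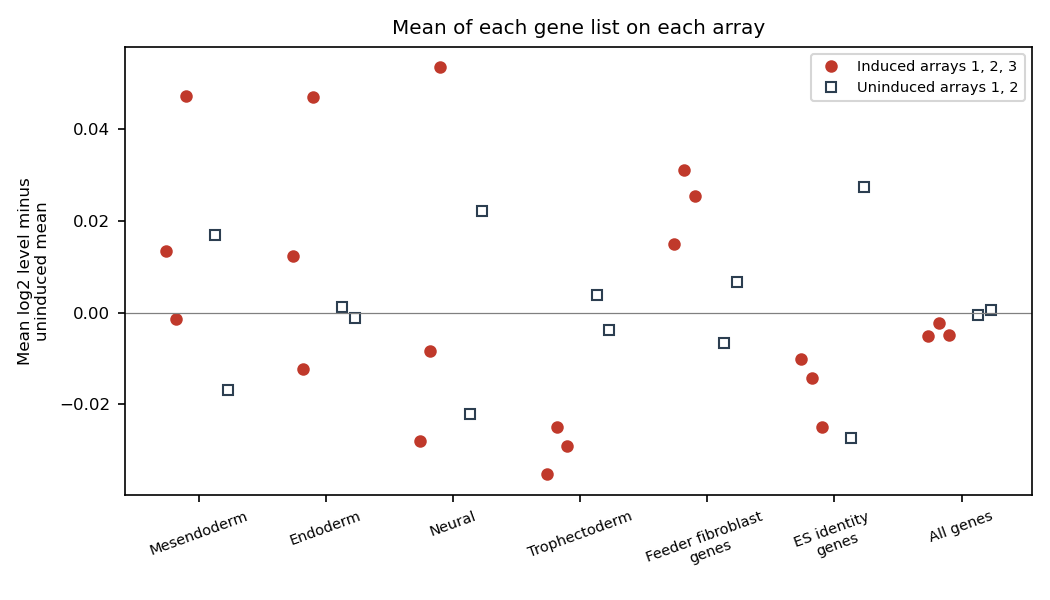
Mean log2 level of each gene list on each array, minus the mean of the uninduced arrays; red circles are induced arrays 1, 2 and 3 from left to right and open squares uninduced arrays 1 and 2. Induced array 3 is highest for mesendoderm, endoderm and neural genes, the trophectoderm means lie below the uninduced ones, and all shifts are within 0.1.

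The precision of single differences was read from the 12 members with no ties within a group. Their 95% intervals used the spread from genes with 5 distinct values. These intervals are not adjusted for the number of genes. They do not give the size of change that the adjusted test could miss. In 11 of the 12, the interval lay inside a 1.5-fold change in either direction, a log2 difference of 0.585. The exception was Nes, from -0.21 to 0.61. Krt8 had an interval from -0.19 to 0.43, Gsc from -0.42 to 0.38 and Gata6 from -0.07 to 0.24. Intervals of the 43 members with ties can be too narrow and are not given.

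**Figure D5:**
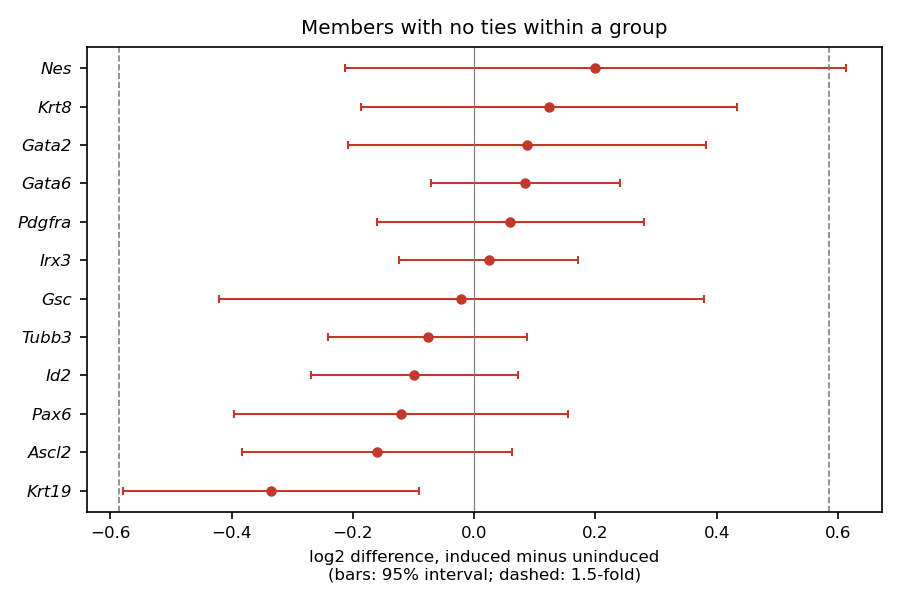
Log2 difference between induced and uninduced cells for the 12 members with no ties within a group, with 95% intervals (bars) from the spread of genes with 5 distinct values; dashed lines mark a 1.5-fold change. The interval of Krt19 is the 1 that leaves out 0, and that of Nes crosses the upper dashed line.

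The absence of calls depended on keeping both uninduced arrays. Without uninduced array 1, limma passed 6 members. Cer1 and Mesp1 were higher, against 4.43% of all genes, and Map2, Mesp2, Neurod1 and Pax3 were lower, against 5.5%. Without uninduced array 2 it passed 4 members. Fabp7 and Mesp2 were higher, against 5.27% of all genes, and Neurog2 and Sox17 were lower, against 4.65%. Mesp2 thus passed in opposite directions, at -0.03 and at 0.07. In these fits the spread came from the induced arrays alone. Mesp1, Mesp2, Map2, Neurod1, Pax3, Neurog2 and Sox17 had 1 value on all 3 of those, and Cer1 and Fabp7 had a tie there.

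Further genes of the same lineages, 95 measured of 104 listed, gave no call in limma either. At an unadjusted p under 0.05 they held 0 higher genes and 1 lower gene, against 0.481% and 1.07% of all genes. Of these, 40 had a higher mean, 40 a lower mean and 15 were equal. Higher and lower means numbered 16 and 5 in mesendoderm, 9 and 11 in endoderm, 8 and 14 in neural and 7 and 10 in trophectoderm genes. Over all genes, 39.6% were higher and 45.3% lower. The groups were apart in 2 genes with induced above (1.65% of all genes) and 3 with induced below (3.08% of all genes). The neural list held the lower gene with an unadjusted p under 0.05. Stmn2, a microtubule regulator gene of neurons, had 8.54, 8.44 and 8.37 on the induced arrays, against 8.79 and 8.74 on the uninduced arrays. The groups were apart, and its difference was -0.32 with a standard error of 0.06 (limma unadjusted p = 0.0097, adjusted p = 0.770). Zic2, a zinc finger factor of the neural plate, had 5.47, 5.38 and 5.33 on the induced arrays, against 5.47 and 5.97 on the uninduced arrays, a difference of -0.33 that came mainly from uninduced array 2. An absolute difference over 0.1 was found in 12 of 25 genes of this list, against 14.2% of all genes.

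In the other lists the largest differences were smaller. Peg10, an imprinted placental gene, had 9.19, 9.26 and 9.26 on the induced arrays, against 8.98 and 9.19 on the uninduced arrays. Its groups were just apart, with a difference of 0.15. Hopx, a homeodomain-only gene of trophoblast, differed by -0.14. Among mesendoderm genes, Isl1 and Chrd differed by 0.13 and 0.10. In the endoderm list, Cxcr4 and Sox18 both differed by -0.09.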

How the data were processed

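The deposited values are log2 levels for 35557 probe sets, which the authors made with RMA, a method that corrects background, normalizes arrays and summarises probe sets, per the submitters' processing notes. No RMA version or genome build is given in the sources used here. Values between 0.789 and 13.13 show the log2 scale. Probe sets with 1 gene symbol (21789) were named through the array annotation, 1621 had several symbols and 12147 were not listed, which left 19938 genes. All 55 measured members matched RefSeq by gene identifier.

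Groups came from sample titles. Genes were tested with limma 3.58.1 in R 4.3.3 (lmFit, eBayes), adjusted by Benjamini-Hochberg over all genes at 0.05. With 3 against 2 arrays, an exact permutation test of 1 gene cannot go below 0.1, so none was used. Tests were run on simulated data in which 100 genes were raised by a log2 difference of 1 and 100 by 0.5. Without ties, limma recovered 78 and 47 of them, with 6 false calls. With ties taken from these arrays it recovered 76 and 62, with 85 false calls. Under the prior from genes with 5 distinct values, 88 and 70 were recovered on the tied data, with 19 false calls. Ties thus raised the false calls of limma, and some changes of either size were missed. These counts of recovered genes come from data with many changed genes, whereas 0.015% of all genes passed on the real arrays. There Satb1, at a difference of 3.55, had an adjusted p of 0.229 in limma. The counts therefore do not give the share of changes that limma would find on the real arrays. Members and lists were chosen with earlier results of these data known. Genes named with all values were, per class, the 4 with the largest absolute difference and the 2 next by p, plus others where a role is described. For arrays, their number limits precision. Same-numbered arrays were not shown to be paired: correlations of their deviations were -0.0063 and 0.0063.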

Additional observations from a re-analysis of the deposited data

How the results depend on the processing

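No lineage gene passed in any of the other settings tried that kept both uninduced arrays, including those without an induced array. With single arrays left out, 0 to 2 members were higher and 0 to 4 lower, and 0 to 4 and 0 to 5 of the other lineage genes. Calls came only without an uninduced array, where the spread is that of the induced arrays. The Satb1 difference of 3.55 newly passed where only untied genes were tested and under the prior of genes holding 5 distinct values. It ranged from 3.12 to 3.56 over the settings other than leaving out single arrays. Leaving out arrays gave it 3.35 to 3.75, with a pass when either uninduced array was left out. With only untied genes the endoderm median was 0.084, from 1 gene, and the trophectoderm median -0.099, from 5 genes, because the tied members were left out. The title number as a replicate block, which also drops induced array 3 because no uninduced array has that number, gave a Satb1 change of 3.555 and no call among members; differences equalled those without induced array 3. Of 307 recomputed differences of 24 named members, 12 had the other sign, 8 of them with the feeder covariate. That covariate cannot be cleanly separated from induction, and the cause of the sign changes was not tested. Ties and the number of arrays limit what could be seen, and not only in genes of low level. The ES cell gene Esrrb had 8.26 and Tead4 had 5.84 on all 5 arrays, both above the median level of all genes.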
